A study of Mus musculus with 12 samples.

Results

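Genes of the meiotic chromosome axis and of the synaptonemal complex were followed in maps of N6-methyladenosine (m6A), a methyl mark within messenger RNA. The 10 genes were Sycp1, Sycp2, Sycp3, Syce1, Rec8, Smc1a, Smc1b, Smc3, Stag3 and Hormad1. Every peak that the authors assigned to 1 of these 10 genes was taken, which gave 29 of the 65355 peaks in the 2 deposited lists, 15 of 33078 in wild-type (WT) and 14 of 32277 in Alkbh5-null (KO) testis. Of the 10 genes, 8 had a peak in both lists, while Stag3 and Hormad1 had none in either.

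The tissue was whole mouse testis at postnatal day 18, from males that carried Alkbh5 (WT, genotype label WT) or lacked it (KO, genotype label KO). Alkbh5 removes the methyl group of m6A, and the study asked how the m6A map differs without it. Fragmented polyadenylated RNA was enriched with an m6A antibody, giving 3 immunoprecipitated (IP) and 3 input libraries per genotype and 12 libraries in all. The strain, the deleted part of Alkbh5 and the cells in which it was deleted are not given in the labels.

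The synaptonemal complex is the protein ladder that holds paired homologous chromosomes together in meiotic prophase. Its lateral elements form on a chromosome axis made of meiotic cohesin, HORMA domain proteins, SYCP2 and SYCP3. SYCP1 forms the transverse filaments that bridge the axes, and SYCE1 belongs to the central element between them. Cohesin is a ring of 2 SMC proteins closed by a kleisin. In meiosis REC8 serves as a kleisin, SMC1B stands beside the mitotic SMC1A, and STAG3 is the meiosis-specific SA subunit. m6A peaks of mammalian messenger RNA commonly lie near the stop codon and in the 3' UTR, where reader proteins can bind them.

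The data were 1 peak list per genotype, so no value per library and no replicate error existed, and the depth of the libraries is unknown. Each peak carries the authors' fold enrichment of IP over input, a false discovery rate (FDR) and a position class. A peak was called shared when it overlapped a peak of the other list by at least 1 base on the same strand, and otherwise WT-only or KO-only. Intervals on shares are Wilson 95% intervals, which cover counting error only and treat peaks as independent. In whole testis, fewer cells of a type and less RNA per cell cannot be told apart, and a missing peak does not show that a transcript is unmethylated. Alkbh5 itself had 3 WT peaks and 0 KO peaks. Of 4 spermatocyte markers Sycp3, Spo11 and Dmc1 had a peak in both lists and Hormad1 in neither. Of 4 general germ cell markers Dazl and Tex101 did, and Ddx4 and Mael did not. None of the immune, erythroid and liver markers (2 each) had a peak. Of the Sertoli and Leydig cell markers Sox9, Wt1 and Cyp11a1 had a peak in both lists, Amh and Insl3 only in WT and Star only in KO, and of the endothelial ones Cdh5 did and Pecam1 did not.

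The start of the Sycp3 transcript is shown first because it is the stretch of a peak for which sequence was at hand and which holds GGACT, the core of the m6A consensus (in capitals). It lies at chr10:88459607-88459636 on the plus strand of GRCm38 (RefSeq, GRCm38.p6), inside the 5' UTR peak of both lists. Written 5' to 3' it reads:
Sycp3: agagagcttggtcggggccGGACTgtattt
The motif begins at base 40 counted from the RefSeq start of Sycp3. The RefSeq windows run from 250 bases before a gene start to 50 after it. The Sycp3 window is set on a start at 88459587 and covered the first 68 bases of this peak. The Rec8 window is set on a start at 55618166, inside the 5' UTR peak of Rec8, and covered the first 179 bases of that peak. GGACT on the transcript strand occurred 1 time in the former and 0 times in the latter, and on the other strand 0 times in either. Over all RefSeq windows, 5.76% held GGACT on the transcript strand within the 50 bases after the gene start, and 4.87% held it on the other strand. In the whole windows of 300 bases these shares were 26.1% and 26%. No share was counted for stretches of 68 or 179 bases, so neither count has a background of its own length. A match is a description of letters and not a mapped m6A site, and the other member peaks lay outside the windows.

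Coding exons held a larger part of these genes' peaks than of all peaks, and most folds were low. They held 7 of the 15 WT peaks, or 46.7% (24.8 to 69.9), against 17.8% (17.4 to 18.2) of all WT peaks. In the KO list coding exons held 8 of 14, or 57.1% (32.6 to 78.6), against 19.5% (19.0 to 19.9) of all. The 3' UTR held 6 WT and 4 KO peaks, 40% and 28.6%, against 48.9% and 48.8% of all. The 5' UTR held 2 in each list, both at the gene start, and no peak of these genes was classed as noncoding exon or intron. The other genes of the axis and of cohesin, described at the end, also had many coding peaks, 39.1% (26.4 to 53.5) in WT and 33.3% (21.4 to 47.9) in KO.

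**Figure D1:**
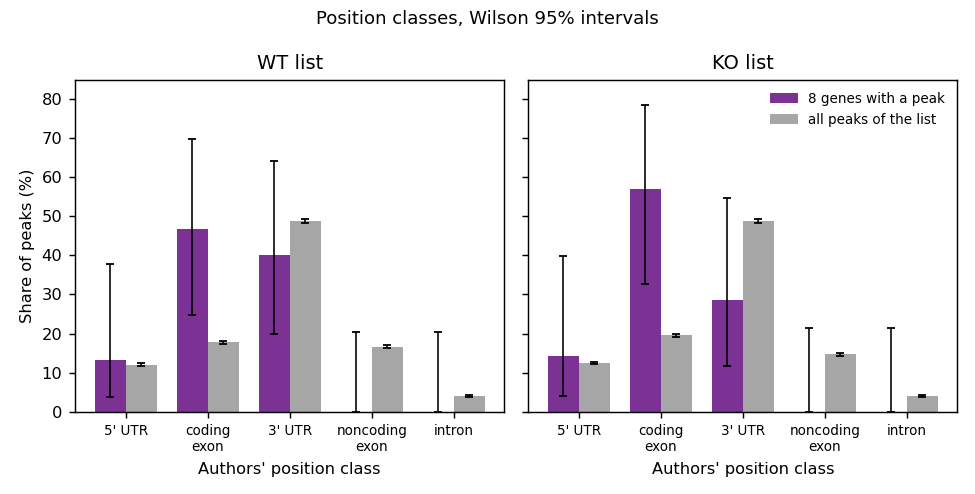
Share of peaks in each position class of the authors' annotation (y axis, %), for the peaks of the 8 genes with a peak (purple) and for all peaks of the list (grey), WT left and KO right; bars are shares and whiskers Wilson 95% intervals. Coding exons held 46.7% of WT and 57.1% of KO peaks of these genes against 17.8% and 19.5% of all peaks.

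Fold and FDR ranked these peaks differently. The median fold was 2.15 in WT and 2.92 in KO, against 6.02 and 6.32 over all peaks, and 14 of 15 WT and 12 of 14 KO peaks lay below the median of their list. Their FDRs were nevertheless low. An FDR of 1e-05 or below (hereafter the stricter FDR) was reached by 11 of 15 WT and by 14 of 14 KO peaks, against 51.3% and 52.2% over all peaks. Coding peaks of these genes spanned a median of 6038 bases in WT and 6768 in KO, introns included, against 449 and 480 bases for all coding peaks. The 3' UTR peaks were shorter than their class. Their median span was 193 bases in the WT list, where all 3' UTR peaks had 361, and 225 in the KO list, where all had 390. The lists give no exon blocks, so the methylated stretch within such a span is not resolved.

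**Figure D2:**
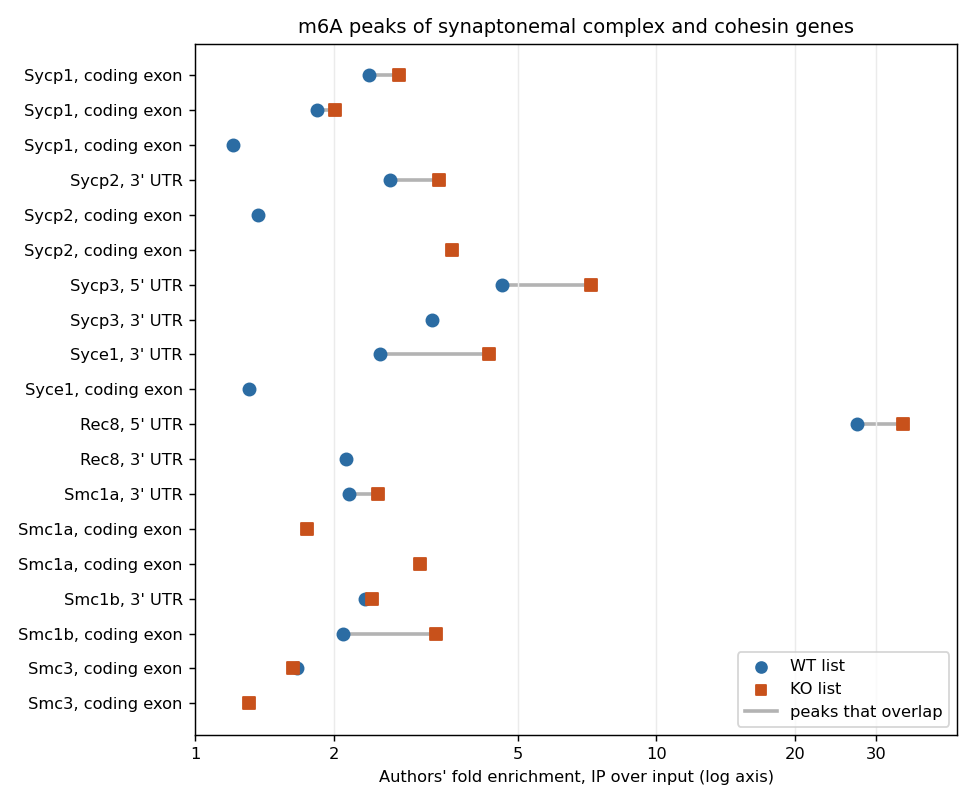
Authors' fold enrichment of IP over input (x axis, log scale) for each peak of the 8 genes, 1 row per peak or overlapping pair, WT as blue circles and KO as orange squares, joined by a line where the peaks overlap. Only the 5' UTR peaks of Rec8 (27.3 and 34.3) and the KO peak of Sycp3 (7.22) exceed 5.

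Of the lateral element genes, Sycp3 had a shared peak at the transcript start, while all Sycp2 peaks lay between 52.9% and 98.8% of the gene span from the 5' end. Sycp3 encodes a core protein of the axis. Its 5' UTR peak began at the annotated gene start and spanned 2984 bases in WT (chr10:88459569-88462552) and 2896 in KO, with a fold of 4.63 in WT and 7.22 in KO and log10 FDRs of -101 and -67.1. Thus the list with the higher fold had the weaker FDR for this peak. Both Sycp3 folds were whole multiples of the step in which the folds of their list move, 5 times 0.926 in WT and 8 times 0.902 in KO. Among peaks with a fold under 10 such multiples made up 24.1% and 23.4% of the lists, and among these genes' peaks of any fold they were 1 of 15 in WT and 3 of 14 in KO. The input level at Sycp3 is unknown, and the part of the step in the difference was not tested.

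The other Sycp3 peak was WT-only and lay at the very end of the gene, in the 3' UTR (chr10:88473001-88473236, fold 3.26, log10 FDR -18.8). Chpt1, a gene on the opposite strand, had a WT peak that shared 203 bases with it (chr10:88472993-88473203, fold 3.17). In the KO list the Chpt1 peak was still present, shorter and with a fold of 2.34 (chr10:88473053-88473113), and Sycp3 had none there. The libraries were strand-marked, but whether the counting used strand is not stated. If it did not, reads of Sycp3 and Chpt1 cannot be told apart at this position. None of the other 28 peaks shared bases with an opposite-strand peak of its list.

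Sycp2, the partner of SYCP3 in the lateral element, had 2 peaks per list. In the 3' UTR a WT peak of 60 bases (fold 2.65, log10 FDR -2.63) and a KO peak of 241 bases (fold 3.37, log10 FDR -17.7) overlapped by 31 bases, 12.9% of the KO peak. The coding peaks did not overlap. The WT-only peak (chr2:178358127-178360333) had a fold of 1.37 and a log10 FDR of -10.3. The KO-only peak (chr2:178374423-178374663) had a fold of 3.61, which lies on the step of the KO list, and a log10 FDR of -62.1, the smallest FDR of any genotype-only peak of these genes. It lay 14089 bases of genomic distance from the nearest WT peak of Sycp2.

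The transverse filament gene Sycp1 carried the broadest peaks. Together, 2 shared coding peaks ran from 17.7% to 77.4% of the gene span, measured from the 5' end in WT. The longer (chr3:102845084-102895858 in WT) spanned 50775 bases in WT, at the 99.6 percentile of all WT spans, and 48500 in KO, with folds of 2.38 and 2.76. Its log10 FDRs were -158 and -124, the smallest of these genes in either list. The second peak had folds of 1.84 in WT and 2.01 in KO. The remaining peak, nearest to the 5' end (chr3:102923011-102929279), was WT-only with a fold of 1.21, the lowest among these genes, and a log10 FDR of -4.55.

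Syce1, of the central element, had its only shared peak at the last bases of the gene. The shared 3' UTR peak reached the annotated gene end in both lists (chr7:140777229-140777378 in WT). Its fold was 2.51 in WT and 4.34 in KO, a ratio of 1.73 that was the largest of any shared pair of these genes, with log10 FDRs of -30.4 and -54.5. A WT-only coding peak of 5706 bases had a fold of 1.31 and a log10 FDR of -3.56.

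Rec8, the meiotic kleisin, had the highest fold of these genes in both lists. Its 5' UTR peak began at the annotated gene start (chr14:55618037-55618277 in WT, 55618247 as the end in KO), with a fold of 27.3 in WT and 34.3 in KO. These folds stood at the 97.7 and 99 percentile of their lists. The log10 FDRs were -19.6 and -25.0, and the KO fold is a whole multiple (38) of the step of its list. A WT-only 3' UTR peak (chr14:55625089-55625365) had a fold of 2.12 and a log10 FDR of -2.27, the highest FDR among these genes. The Rec8 and Sycp3 peaks at the gene start were the only 5' UTR peaks among these genes.

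Of the SMC1 paralogues, Smc1a had KO-only peaks and Smc1b had none. Smc1a, the SMC1 subunit of mitotic cohesin, had 1 WT peak and 3 KO peaks. The shared peak had the same ends in both lists (X chromosome, 152026410 to 152027902), with a fold of 2.15 in WT and 2.49 in KO. The authors classed it as 3' UTR through transcript ENSMUST00000145518, but it lay 34792 bases before the gene end, between 21.6% and 24.8% of the gene span. The other Smc1a peaks were classed through a different transcript, ENSMUST00000045312. They were KO-only coding peaks, the first at 152037595 to 152037834 (fold 1.75, log10 FDR -6.48) and the second at 152038013 to 152046679 (fold 3.07, log10 FDR -14.1).

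Smc1b, the meiosis-specific SMC1, had shared peaks only. The peak at the gene end, in the 3' UTR, had folds of 2.33 and 2.42. The coding peak had the same 3' boundary in both lists (chr15:85114692-85120729 in WT) and reached 3183 bases farther towards the 5' end of the gene in KO, with a fold of 2.09 in WT and 3.32 in KO. Smc3, the partner of either SMC1, had a shared coding peak of nearly equal fold (1.66 in WT, 1.63 in KO) that spanned 1630 bases in WT (chr19:53623524-53625153) and 4868 in KO. It also had a KO-only coding peak (chr19:53639351-53640946, fold 1.31, log10 FDR -8.52). The gains in span are in genomic bases with introns, and the number of exonic bases is not resolved.

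**Figure D3:**
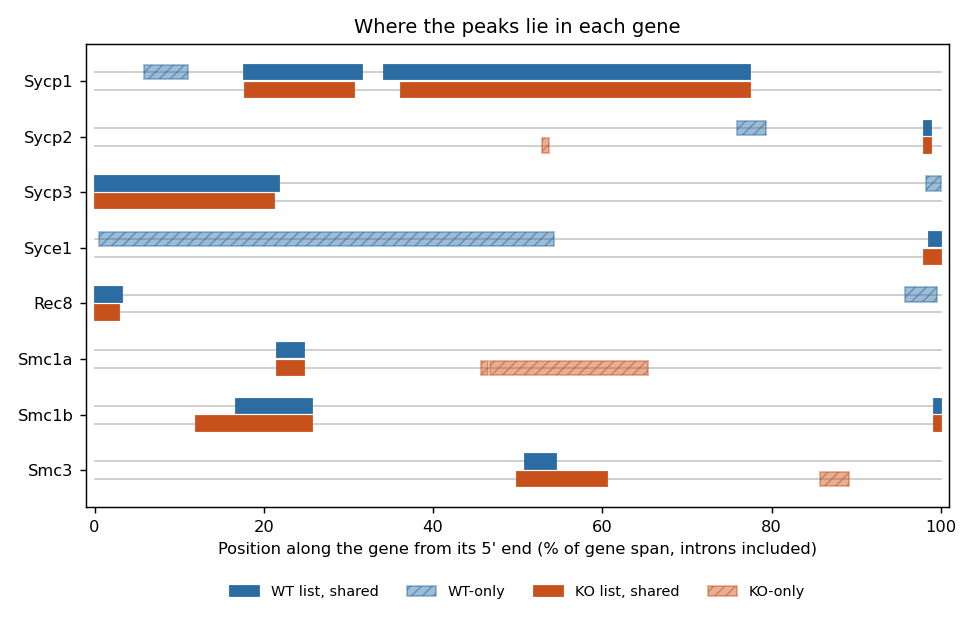
Extent of each peak along its gene (x axis, % of the gene span from the 5' end, introns included), WT in blue above KO in orange, with shared peaks filled and genotype-only peaks hatched; narrow peaks are drawn at a minimum width. The KO-only peaks of Sycp2, Smc1a and Smc3 lie inside the gene, as do the WT-only peaks of Sycp1, Sycp2 and Syce1. The WT-only peaks of Sycp3 and Rec8 lie at the 3' end of the gene.

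Stag3 and Hormad1 had no peak in either list. HORMAD1 marks unsynapsed axes and STAG3 is needed for meiotic cohesin. Within the RefSeq span of Stag3 each list held 2 overlapping peaks on the opposite strand. They were named Gpc2 in WT (folds 20.5 and 21.8) and Gm43720 in KO (29.0 and 77.3). Their starts were the same in both lists (chr5:138273634 and chr5:138273655), so both names cover the same place. Whether the counting used strand is not stated. If it did not, reads of Stag3 cannot be told apart from reads of the opposite strand there. No peak of another gene lay within the span of Hormad1.

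Genotype-only peaks were found in 7 of the 8 genes with a peak. The share of all genes with a peak of either kind was not counted, so the 7 of 8 has no background beside it. Of 15 WT peaks 5 had no KO partner, or 33.3% (15.2 to 58.3), where 21.6% of all WT peaks had none. Of 14 KO peaks 4 had no WT partner, or 28.6% (11.7 to 54.6), where 19.3% of all KO peaks had none. Both intervals take in the share over all peaks. By gene, 5 of 8 (Sycp1, Sycp2, Sycp3, Syce1 and Rec8) had a WT-only peak, against 34.8% of all genes with a WT peak. A KO-only peak was listed for 3 of 8 (Sycp2, Smc1a and Smc3), against 31.5% of all genes with a KO peak. Sycp2 had both kinds, and Smc1b neither.

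All 4 KO-only peaks lay in coding exons, as did 21.7% of all KO-only peaks, and 2 of the 4 lay in Smc1a. All 4 passed the stricter FDR, but so did all 14 KO peaks of these genes, shared ones included. That FDR was passed by 9.63% of all KO-only peaks and by 16.2% of all KO-only coding peaks. Of the 5 WT-only peaks 2 passed it, in Sycp2 and Sycp3, so that the count of WT-only peaks fell from 5 to 2. Of all WT-only peaks 10.7% passed it. Over all peaks at the stricter FDR, 4.50% of WT and 3.57% of KO peaks had no partner, and of these genes' peaks 2 of 11 and 4 of 14. For coding peaks of all genes at any FDR these shares were 15.1% and 21.6%. The 3 WT-only coding peaks, in Sycp1, Sycp2 and Syce1, had folds of 1.21 to 1.37, and the KO-only coding peaks of 1.31 to 3.61, against medians of 4.07 and 3.61 for all genotype-only coding peaks.

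Where a peak was shared, the KO list gave the higher fold in most cases. Of 10 pairs 9 had a higher fold in KO, with Smc3 as the exception, while 50.5% of all 25939 shared pairs did. The median log2 ratio of KO over WT fold was 0.27 (a ratio of 1.21), within a range from -0.03 in Smc3 to 0.79 in Syce1, against a median of 0.01 and an interquartile range from -0.37 to 0.46 over all pairs. The Syce1 value stood at the 85.1 percentile of all pairs, so that none of the 10 lay at their upper extreme. The folds come from separate calls without replicate values, so a ratio of this size has no error attached and was not tested.

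Among coding pairs of all genes 61.8% had the higher fold in KO, with a median log2 ratio of 0.18, and the 4 coding pairs of these genes had a median of 0.17. Among 3' UTR pairs of all genes the median was -0.04, and the 4 such pairs of these genes were all higher in KO, with a median of 0.28. Of all pairs with a WT fold of 5 or lower, 66.8% were higher in KO, with a median of 0.23, and of the 9 pairs of these genes in that range 8 (88.9%) were, with a median of 0.21. The WT fold is also the denominator of the ratio, so that this limit by itself favours pairs higher in KO. When pairs were instead taken by a geometric mean of both folds of 5 or lower, 54.6% of all were higher in KO (median 0.06), as were 7 of 8 pairs of these genes (median 0.21). Both limits were chosen after the values were seen.

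**Figure D4:**
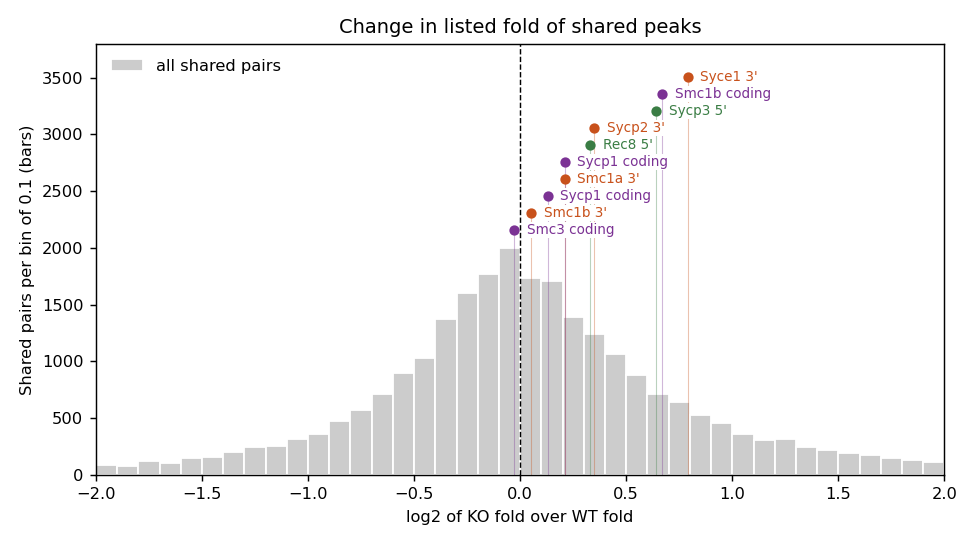
Distribution of the log2 ratio of KO over WT fold for all shared pairs (grey bars, pairs per bin of 0.1; 882 pairs beyond -2 or 2 are not drawn) and the 10 pairs of these genes (points, coloured by position class, with heights set for legibility only). The 10 values run from -0.03 to 0.79 and 9 lie above 0.

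Other genes of the axis, of the central element and of cohesin regulation were counted in the same way. Of the 30 genes in this list, which includes cohesin loaders, release factors and shugoshins, 24 had a peak in either list. Tex12, Hormad2, Rad21, Rad21l, Pttg1 and Skp1a had none. They held 46 WT and 45 KO peaks, with 4 WT-only, or 8.70% (3.43 to 20.3), and 6 KO-only, or 13.3% (6.26 to 26.2), against 21.6% and 19.3% over all peaks. The KO-only interval takes in the share over all peaks, while the WT-only interval ends below it. By gene, 4 of 23 had a WT-only and 5 of 24 a KO-only peak, against 34.8% and 31.5% of all genes with a peak in the list concerned. Shared peaks alone were found in 16 of the 24, and the same share over all genes was not counted. When partners had to overlap by 50% of each peak, WT-only peaks were found in 12 and KO-only peaks in 11 of these genes. How many of all genes had such peaks under this rule was not counted, so the 12 and 11 have no background beside them. At the stricter FDR a single genotype-only peak was left, a KO-only coding peak of 61 bases in Espl1, which encodes separase, the protease that opens cohesin (chr15:102298864-102298924, fold 1.92, log10 FDR -5.20). It lay 358 bases from the nearest WT peak of Espl1. In 32 of their 42 shared pairs the KO fold was higher, 76.2% against 50.5% of all pairs, with a median log2 ratio of 0.43. These 42 pairs held only 39 KO peaks, because some neighbouring WT peaks of Ankrd31, Cdca5 and Esco1 shared a KO peak. All pairs with such a KO peak were higher in KO and are not independent. In Ankrd31 a KO fold of 12.1 was set against WT folds of 8.73 and 2.77. The share without this reuse was not counted. The median fold of all peaks of the 30 listed genes was 4.40 in WT and 6.19 in KO, above the 2.15 and 2.92 of the 8 genes described first.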

How the data were processed

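The authors deposited 1 peak list per genotype, each comparing IP with input libraries. The build GRCm38 and the tools HISAT2, StringTie, HOMER, fastp and FastQC are named, per the submitters' processing notes. The peak caller, and whether replicates were pooled, are not given in the sources used here. Per the file headers each peak has a fold (a linear ratio of IP over input) and the log10 of its p-value and FDR, handled here as a score deposited by the authors. Deposited starts count from 0 and are printed from 1.

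Peaks were compared from start to end, introns included, with Python 3.11.15, pandas 2.3.3 and numpy 2.4.6, in code tested on simulated peaks. Each WT peak was paired with the KO peak of largest overlap, so that neighbouring WT peaks could share a KO peak. The step of the folds was the value with most matches beyond chance among partnerless peaks with folds of 10 to 100, of which 95.9% in WT and 94.4% in KO were whole multiples, against 10.8% and 11.1% by chance. Depth is unknown and no p-value was computed. All 10 genes are named. From the list of 30 other genes those with a genotype-only peak at the stricter FDR and those without a peak are named. Members and lists were chosen with earlier results of these data known. Overlap rule, FDR, list length and pairing were varied.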

Additional observations from a re-analysis of the deposited data

How the results depend on the processing

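Of 59 values under the alternatives, 51 stayed within 1.5 times the count, or inside the interval, of the value reported. This count overstates the stability. None of the peaks of the 10 genes had an FDR above 0.05, so that limit could not change their values. Equal list lengths changed no value, and the intervals on the shares were wide. At an FDR of 1e-05 or below, WT peaks without a KO partner fell from 5 to 2, in 2 genes in place of 5. In the list of 30 other genes, those with a WT-only peak numbered 12 and those with a KO-only peak 11 when 50% of both peaks had to overlap, against 4 and 5 as reported. At an FDR of 0.05 or below 1 of them had a WT-only peak. At 1e-05 or below, WT-only peaks were left in 0 and KO-only peaks in 1 of these genes. The median log2 ratio of KO over WT fold of shared pairs, 0.27, was 0.04 after subtracting the median of all pairs with a WT fold of 5 or lower, a limit set on the denominator of the ratio itself, and 0.21 after subtracting that of pairs with a geometric mean fold of 5 or lower. Both settings were added after the values were seen. With 50% of both peaks overlapping, the 10 genes had 7 WT-only and 6 KO-only peaks, since the Sycp2 3' UTR and Smc3 coding pairs were split. The shares over all peaks and all genes under this rule were not counted, so none of its counts can be read against a background. The alternative restricted to exon blocks was not run because no annotation of exons was used. No paired analysis was possible because the peak lists hold 1 value per genotype, and for the same reason no replicate could be left out. Folds on the step, unknown depth and spans with introns limit what the folds show.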

Other observations

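In the list of other genes, Syce2 and Syce3, both of the central element, differed in direction. They were picked after their values were seen. Syce2 had a 5' UTR peak with a fold of 26.8 in WT (chr8:84872111-84872563) and 1.81 in KO (chr8:84872200-84872563), while the log10 FDRs were alike at -9.48 and -10.5. The WT peak began at the annotated gene start and the KO peak inside the gene. Syce3 had a 3' UTR peak with a fold of 2.09 in WT and 3.21 in KO. Six6os1, of the same list, had 2 shared pairs, both higher in KO. Its 3' UTR folds were 4.5 in WT (chr12:72881139-72881408) and 14.7 in KO (chr12:72881109-72885266). The KO peak was much longer, so these folds are not of the same stretch. Its 5' UTR folds were 10.7 in WT and 11.4 in KO. Fbxo47, an F-box gene of meiosis, had a 3' UTR peak with a fold of 6.67 in WT and 24.4 in KO and log10 FDRs of -91.2 and -86.6. In Syce2, Fbxo47 and the 5' UTR pair of Six6os1, as in the 5' UTR pair of Sycp3, the list with the higher fold had the weaker FDR. The same held for the longer Sycp1 pair and for further pairs of this list, so it is not particular to the genes named here.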
